A study of Mus musculus with 4 samples.

Results

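The matrix metalloproteases (MMPs), their tissue inhibitors (TIMPs), the ADAM proteases and the ADAMTS proteases were examined in MC38 cells, a mouse colon carcinoma line, with and without targeting of Cbfb. Members were taken by gene symbol (Mmp, Adam or Adamts followed by a number, and Timp1 to Timp4), which gave 79 of the 26322 genes listed: 23 MMPs, 4 TIMPs, 33 ADAMs and 19 ADAMTS genes. Cbfb encodes core-binding factor β, the subunit that stabilises the binding of RUNX transcription factors to DNA. The WT group (n = 2 libraries) consisted of MC38 cells electroporated with Cas9 and a non-targeting guide RNA, and the CbfbKO group (n = 2 libraries) of MC38 cells electroporated with Cas9 and 1 guide against Cbfb. Both groups therefore carried Cas9 and a guide, no further agent was named, and cells were harvested at least 1 week after electroporation. The knockout cells were an edited population and not described as a clone. A further replicate of each group had RNA of poor quality and was not sequenced. The labels do not say that the 2 libraries of a group came from separate cultures, so the p-values below measure only the spread between these libraries.

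MMPs, ADAMs and ADAMTS enzymes are metzincins, proteases whose catalytic zinc ion is held by histidines of a short conserved motif. MMPs cut collagens and other matrix proteins, ADAMs are membrane-anchored enzymes best known for releasing the extracellular part of cytokines, growth factors and receptors, and ADAMTS enzymes are secreted and act on proteoglycans and procollagens. TIMPs occupy the active site of these enzymes and block it. In tumours the enzymes come both from cancer cells and from the surrounding stroma, of which only the former were cultured here.

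The 4 libraries held 3189035 to 3907936 counted reads, so that 1 read was worth 0.256 to 0.314 counts-per-million units (CPM), and a gene without a read in a library may have been present at up to 0.768 to 0.941 CPM (3 reads, counting error only). Levels are given below as whole reads recovered from the deposited log2 CPM values or as CPM. The libraries were made by 3′ mRNA sequencing, which reads each transcript near its end, so levels were not divided by gene length. Cbfb itself had 295 and 285 reads in WT and 125 and 125 in CbfbKO, a log2 fold change of -1.27 ± 0.12 (SE, n = 2 per group, limma adjusted p = 1.76e-07). Of 12 colon epithelial markers, 6 had no read in any library, among them Krt18 and Vil1, and Epcam had 0 or 1 read per library, whereas Vim had 6737 to 8437. The labelled colon carcinoma origin was thus not visible in these epithelial genes. In bulk libraries, fewer cells making an RNA and less RNA per cell cannot be told apart.

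Most members had few reads or none. No read was counted in any of the 4 libraries for 38 of the 79 genes. These included the collagenase genes Mmp8 and Mmp13, the epithelial matrilysin gene Mmp7, the inhibitor genes Timp3 and Timp4, and Adam12. A further 12 members had between 1 and 5 reads over all libraries together, among them the macrophage elastase gene Mmp12 with 1 read and Adamts6 with 5. The remaining 29 reached a log2 CPM of 0 in 2 or more libraries and were tested: 9 MMPs, 2 TIMPs, 10 ADAMs and 8 ADAMTS genes. Only 15 of them had 10 or more reads in every library. The members Mmp19 and Adamts12 passed the filter through the CbfbKO libraries only.

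**Figure D1:**
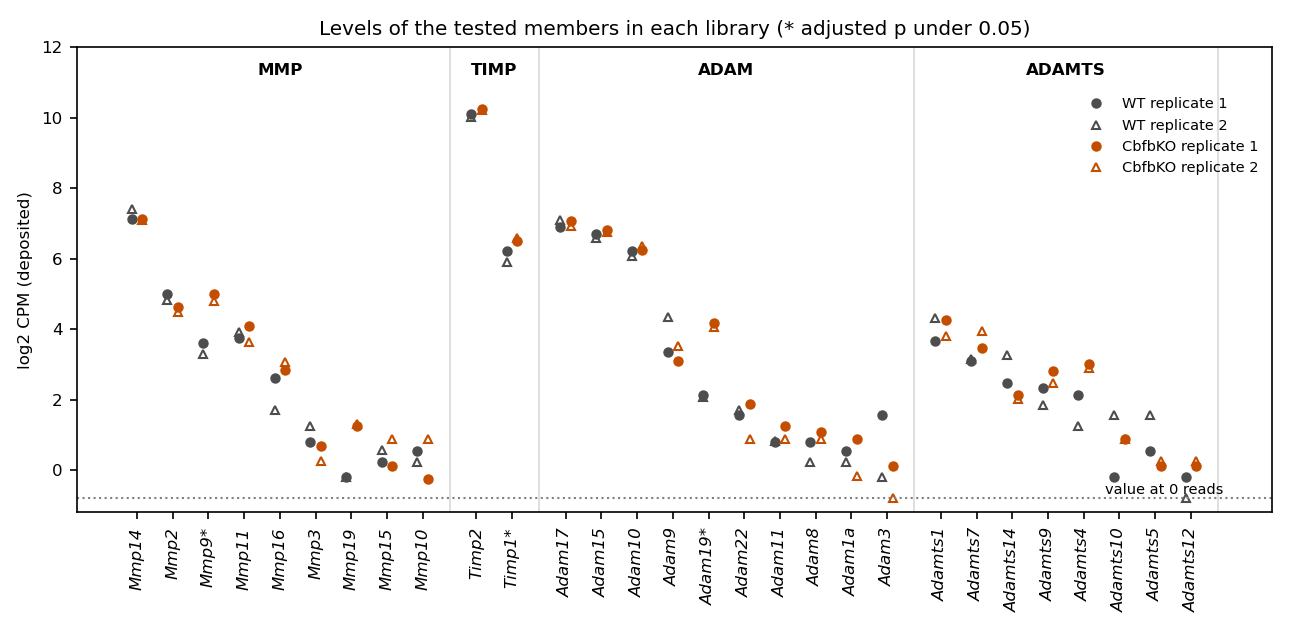
Deposited log2 CPM (vertical axis) of the 29 tested members, ordered within each family by mean level. Points are single libraries, grey for WT and orange for CbfbKO, with filled circles for replicate 1 and open triangles for replicate 2. The orange points lie clear above the grey ones for Adam19 and Mmp9, and Timp2 stands highest of all members.

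The members were first compared at the site that holds the catalytic zinc. The pattern searched was the codons for histidine, glutamate, any 2 residues, histidine, any 2, glycine, any 2 and histidine, in the coding sequence of each gene's transcript with the longest annotated coding sequence. It was found in 69 of 21562 protein-coding genes (0.320%) and in 56 of the 79 members. Of the tested members, all 9 MMPs, 7 of 10 ADAMs and 5 of 8 ADAMTS genes held it, and neither TIMP did. The ADAM genes without it were Adam11, Adam22 and Adam3. Adamts1, Adamts4 and Adamts9 kept the 3 histidines and had an asparagine codon (AAC or AAT) in place of glycine.

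The coding sequences of this site are printed for Mmp9 and Adam19, the enzymes that rose in CbfbKO cells, and for the abundant or related enzymes they are set beside, 5′ to 3′ on the coding strand, with the 3 histidine codons in capitals. They come from the GENCODE M21 transcripts of GRCm38. The site of Mmp9 lies in exon 8 at chr2:164951133-164951165 (plus strand), that of Mmp2 in exon 8 at chr8:92839279-92839311 (plus), that of Mmp14 in exon 5 at chr14:54437627-54437659 (plus), that of Adam19 in exon 11 at chr11:46125050-46125082 (plus), and that of Adam17 in exon 12 at chr12:21336732-21336764 (minus). The site of Adamts4 is split over exons 3 and 4.
Mmp9: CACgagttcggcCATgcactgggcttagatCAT
Mmp2: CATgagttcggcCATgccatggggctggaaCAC
Mmp14: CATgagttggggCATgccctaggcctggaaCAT
Adam19: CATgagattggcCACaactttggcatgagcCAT
Adam17: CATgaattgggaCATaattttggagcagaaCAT
Adamts4: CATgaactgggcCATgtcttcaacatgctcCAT

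Adam19, Mmp9 and Timp1 rose in CbfbKO cells, and no member fell. These 3 of 29 tested members (10.3%) passed an adjusted p of 0.05, beside 2.83% of all 12207 genes tested. All 3 were higher, where 1.57% of all genes were called higher, and 0 were lower, where 1.25% of all genes were called lower (limma, Benjamini-Hochberg adjustment over all genes tested). At an unadjusted p under 0.05 the members numbered 8 higher and 2 lower, together 10 of 29, beside 14.9% of all genes, and voom with limma on the recovered reads also called 0 lower. The 2 groups did not overlap for 18 of the 29 members (62.1%), against 44.1% of all genes tested. The median log2 fold change was 0.15 over the tested members and 0.04 over all genes tested. These counts describe the members that passed the filter and not all 79. They include Mmp19 and Adamts12, whose higher CbfbKO values the filter favoured, and without them the groups did not overlap for 16 of 27 members (59.3%) and 7 members were higher at an unadjusted p under 0.05.

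**Figure D2:**
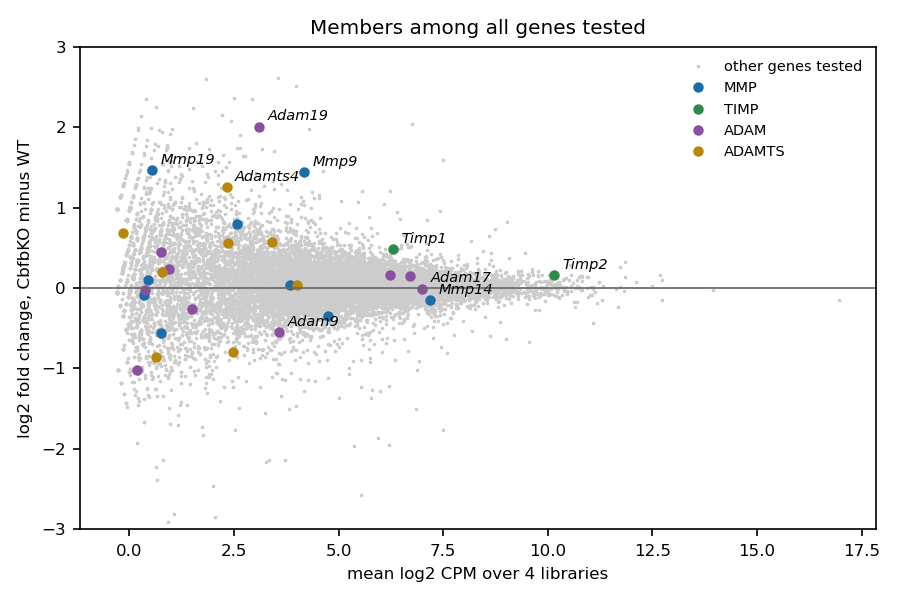
Log2 fold change (CbfbKO minus WT, vertical axis) against mean log2 CPM over the 4 libraries (horizontal axis) for every gene tested, with members coloured by family and other genes in grey. Adam19, Mmp9 and Timp1 lie at the upper edge of genes of similar level, and 4 other genes fall beyond the axis limit of 3.

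Of the secreted MMPs, the gelatinases had the highest mean level over the 4 libraries. Of the gelatinases, Mmp9 rose in CbfbKO cells while Mmp2 did not pass the threshold. In WT alone Mmp9 was below Mmp11 in both libraries, with 39 and 31 reads against 44 and 48. Mmp9, gelatinase B, which degrades denatured and basement membrane collagen, had 39 and 31 reads in the WT libraries and 122 and 86 in the CbfbKO libraries. Every CbfbKO library was above every WT library. Its level rose 2.71-fold (95% interval 2.02 to 3.64), from 3.45 ± 0.20 to 4.89 ± 0.15 log2 CPM (SD, n = 2), a log2 fold change of 1.44 ± 0.21 (SE, limma adjusted p = 6.84e-05). Its zinc site, printed above, matches the full pattern. Mmp9 lies on the plus strand of chromosome 2, from 164940780 to 164955850 of GRCm38. Leukocytes are a rich source of Mmp9 in tissue. In these libraries 6 of 8 leukocyte markers were at 0 reads throughout, Ptprc had 1 read in a single WT library, and Cd68 had 3 and 0 reads in WT and 6 and 2 in CbfbKO. The summed level of the list was 0 to 1.18 CPM in WT and 0.627 to 1.54 CPM in CbfbKO, and its part in the Mmp9 result was not tested.

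Mmp2, gelatinase A, had 107 and 92 reads in WT and 95 and 70 in CbfbKO. After scaling to library size both CbfbKO libraries were below both WT libraries, at 24.3 and 22.0 CPM against 31.5 and 27.6 CPM. The log2 fold change of -0.34 (95% interval -0.69 to -0.00050) did not pass the adjusted threshold (limma adjusted p = 0.335). Mmp9 had fewer reads than Mmp2 in both WT libraries and more in both CbfbKO libraries.

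The stromelysins and the remaining secreted MMPs had lower mean levels over the 4 libraries than the gelatinases. Mmp11, stromelysin 3, had 44 and 48 reads in WT and 64 and 38 in CbfbKO, with overlapping groups and a log2 fold change of 0.03 (95% interval -0.45 to 0.51) that turned to -0.0091 under quantile normalization. Mmp3 and Mmp10, stromelysins 1 and 2, had 1 to 6 reads per library. Mmp19 had 1 read in each WT library and 7 and 6 reads in the CbfbKO libraries. Its pooled ratio was 6.17 with a counting interval of 1.40 to 56.3, and the limma adjusted p was 0.127. Mmp19 shares 789 exonic bases with Tmem198b on the opposite strand (22 and 27 reads in WT, 40 and 31 in CbfbKO), and whether the counting used strand is not given in the sources used here.

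Among the membrane-bound MMPs, Mmp14 carried most of the reads of its whole family. Mmp14, or MT1-MMP, is a collagenase on the cell surface that also activates the proenzyme of Mmp2. It had 468 and 559 reads in WT and 545 and 430 in CbfbKO, which are overlapping groups. The log2 fold change was -0.15 (95% interval -0.33 to 0.04, limma adjusted p = 0.486). Mmp16, MT3-MMP, had 19 and 9 reads in WT and 26 and 25 in CbfbKO. Its groups did not overlap, but the log2 fold change of 0.79 (95% interval 0.06 to 1.53) did not pass (limma adjusted p = 0.280). Mmp15, MT2-MMP, had 2 to 4 reads per library.

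The summed level of the MMP family was 203 and 226 CPM in WT and 222 and 209 CPM in CbfbKO, so the sum overlapped between groups. Among the 5 most abundant MMPs, the shares of Mmp9, Mmp14, Mmp2 (15.5% and 12.2% in WT, 11.0% and 10.5% in CbfbKO) and Mmp16 (2.76% and 1.19% in WT, 3.00% and 3.74% in CbfbKO) did not overlap, and that of Mmp11 did (6.39% and 6.37% in WT, 7.38% and 5.69% in CbfbKO). Mmp9 made up 5.66% (95% Wilson interval 4.17 to 7.64) and 4.11% (2.91 to 5.78) of MMP reads in the WT libraries. In the CbfbKO libraries it made up 14.1% (11.9 to 16.5) and 12.9% (10.5 to 15.6). Mmp14 made up 67.9% and 74.1% of MMP reads in WT and 62.9% and 64.4% in CbfbKO. Shares within a family depend on each other, because a larger share of any gene leaves less for the rest. In CPM, Mmp14 itself overlapped between groups (138 and 168 in WT, 139 and 135 in CbfbKO), and Mmp2 did not. With 2 libraries against 2, the smallest two-sided p of an exact permutation test is 0.333, so these shares were not tested. The intervals cover counting error only.

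**Figure D3:**
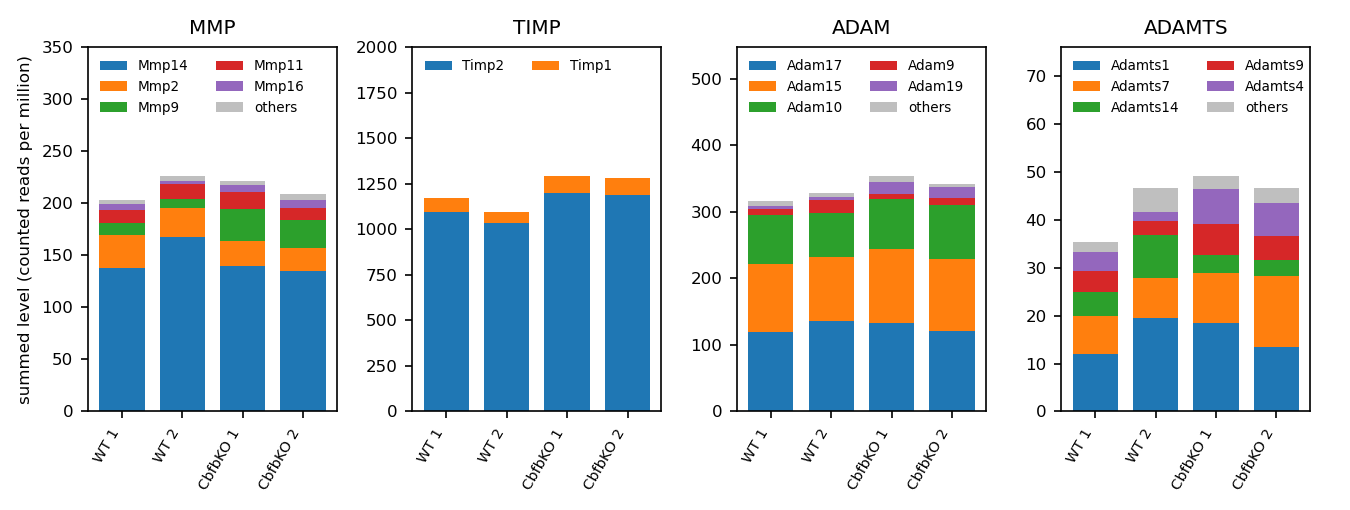
Stacked bars of the level (CPM, vertical axis, separate scale per panel) of each family in each of the 4 libraries, with the 5 most abundant tested members coloured and the rest in grey. The green Mmp9 segment and the purple Adam19 segment are taller in both CbfbKO libraries, while the bar heights of the MMP family overlap between groups.

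Summed over the family, the inhibitors had more reads than the proteases of the other families together, with 2.11 and 1.82 TIMP reads per protease read in WT and 2.07 and 2.15 in CbfbKO. Timp2, which blocks MMPs and also links the proenzyme of Mmp2 to Mmp14, was the most abundant member of all, with 3721 and 3455 reads in WT and 4697 and 3785 in CbfbKO. Scaled to library size, both CbfbKO libraries were slightly above both WT libraries. The log2 fold change was 0.16 ± 0.053 (SE), a 1.12-fold difference, and it did not pass the adjusted threshold (limma adjusted p = 0.102). In voom with library totals it did (adjusted p = 0.0166).

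Timp1, a secreted inhibitor that also binds Cd63 at the cell surface, had 250 and 197 reads in WT and 348 and 305 in CbfbKO. The CbfbKO libraries were both higher, and the WT libraries differed from each other by more than the CbfbKO libraries did. Its level rose 1.40-fold (95% interval 1.19 to 1.64), from 6.06 ± 0.22 to 6.54 ± 0.07 log2 CPM (SD, n = 2), a log2 fold change of 0.48 ± 0.11 (SE, limma adjusted p = 0.0131). This call was lost without WT replicate 2 (adjusted p = 0.179), without CbfbKO replicate 1 (0.106), without CbfbKO replicate 2 (0.220) and under quantile normalization (0.237). It was kept without WT replicate 1 (limma adjusted p = 9.25e-05). Cd63 had 5053 to 6190 reads per library, with a log2 fold change of 0.07 (95% interval -0.04 to 0.17). Timp3 and Timp4 had 0 reads in all 4 libraries.

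The TIMP family summed to 1169 and 1095 CPM in WT and 1291 and 1283 CPM in CbfbKO. Per MMP read there were 5.76 and 4.84 TIMP reads in WT and 5.82 and 6.12 in CbfbKO. Both CbfbKO ratios were above both WT ratios, by a margin over WT replicate 1 that was smaller than the gap between the WT libraries. The ratio was not tested, and it is a ratio of RNA and not of protein.

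The best-known sheddases were among the most abundant members, and none of them passed the threshold. Adam17, which releases tumour necrosis factor from the cell surface, had 406 and 453 reads in WT and 517 and 387 in CbfbKO. The groups overlapped, and the log2 fold change of -0.01 (95% interval -0.19 to 0.18) corresponds to 0.87 to 1.13 times the WT level. Its ligand substrate Tnf had 0 reads in all 4 libraries, and the receptor gene Tnfrsf1a, whose product Adam17 also cuts, had 226 and 223 reads in WT and 291 and 198 in CbfbKO. Adam10, which cuts Notch receptors and cadherins, had 248 and 224 reads in WT and 296 and 259 in CbfbKO, a log2 fold change of 0.16 (95% interval -0.05 to 0.38).

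Adam15, a membrane protease with an adhesive disintegrin domain, had 348 and 319 reads in WT and 436 and 343 in CbfbKO. Its log2 fold change was 0.15 (95% interval -0.04 to 0.33). For both Adam10 and Adam15 the CbfbKO libraries were just above the WT libraries after scaling, without passing the adjusted threshold (limma adjusted p = 0.512 and 0.5002). Adam9 had 33 and 66 reads in WT and 31 and 35 in CbfbKO, with overlapping groups and WT replicate 2 standing apart. Its log2 fold change was -0.55 (95% interval -1.14 to 0.05, limma adjusted p = 0.395). Without WT replicate 1 it was -1.04 (limma adjusted p = 0.0216), and without WT replicate 2 it was -0.05 (limma adjusted p = 0.975).

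Adam19 rose in CbfbKO cells by more than the other called members did. Adam19, also called meltrin β, is a membrane protease that can process neuregulin and is needed for heart development. It had 13 and 12 reads in WT and 68 and 51 in CbfbKO, so the groups lay far apart beside the gap within each. Its level rose 4.02-fold (95% interval 2.69 to 6.03), from 2.101 ± 0.055 to 4.11 ± 0.083 log2 CPM (SD, n = 2), a log2 fold change of 2.01 ± 0.28 (SE, limma adjusted p = 5.55e-05). Since the deposited values carry a prior count of 2 reads, this fold understates the change of a gene with so few reads, and voom on the reads gave a log2 fold change of 2.13. Adam19 lies on the plus strand of chromosome 11, from 46055992 to 46147343 of GRCm38, and its exons overlap those of the antisense genes Gm16033 and Gm16034 by 587 and 480 bases.

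The position of Adam19 in its family changed with the group. In WT it was well below Adam9, and in CbfbKO it was above Adam9 in both libraries. It made up 1.21% and 1.10% of ADAM reads in WT and 4.92% and 4.68% in CbfbKO. The ADAM family summed to 317 and 328 CPM in WT and to 353 and 341 CPM in CbfbKO. Fibroblasts also make Timp1. The fibroblast list had 2 of 7 markers at 0 reads in every library (Lum and Thy1) and summed to 66.6 to 72.1 CPM in WT and 80.3 to 83.7 CPM in CbfbKO. Its 4 tested markers had a median log2 fold change of 0.47 and none passed the threshold. Pdgfrb and Col1a1 had log2 fold changes of 0.82 and 0.41, Pdgfra had 121 and 91 reads in WT and 169 and 152 in CbfbKO (log2 fold change 0.53, limma adjusted p = 0.0515), and Dcn had 110 and 115 reads in WT and 116 and 95 in CbfbKO (log2 fold change -0.17). The mesenchymal list, with no marker of 8 at 0 throughout, summed to 2932 and 2997 CPM in WT and 2486 and 2387 CPM in CbfbKO, with a median log2 fold change of 0.02 over its 7 tested genes. Of these S100a4 alone was called and fell by 1.77 on the log2 scale (limma adjusted p = 1.26e-12). The part of these lists in the changes of Adam19 and Timp1 was not tested.

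The other 5 tested ADAM genes (Adam22, Adam11, Adam8, Adam1a and Adam3) had 0 to 12 reads per library, and none passed the threshold. Their log2 fold changes ran from -1.02 for Adam3, with 8 and 1 reads in WT and 2 and 0 in CbfbKO, to 0.45 for Adam8. Adam1a, with 1 to 5 reads per library, shares 1805 exonic bases with Mapkapk5 on the same strand. How reads in shared bases were counted is not given in the sources used here.

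No ADAMTS gene passed the threshold, and 6 of the 8 tested had positive log2 fold changes, as did 6958 of all 12207 genes tested. Adamts12, among the 6, passed the filter through the CbfbKO libraries only. Adamts4, an aggrecanase of cartilage and other matrices, had 13 and 6 reads in WT and 29 and 22 in CbfbKO. Both CbfbKO libraries were above both WT libraries. The log2 fold change was 1.26 (95% interval 0.49 to 2.02, limma adjusted p = 0.0689). Among the alternatives the adjusted p lay between 0.00688 and 0.380. It passed with a minimum of 5 CPM (limma adjusted p = 0.0234), with a replicate block (0.0226) and without WT replicate 1 (0.00688). Its zinc site, printed above, has the asparagine codon AAC.

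Neither Adamts1 nor Adamts9, which both cut versican, passed the threshold. Adamts1 had the highest mean level of its family over the 4 libraries, with 41 and 65 reads in WT and 72 and 43 in CbfbKO, and its groups overlapped widely. In CbfbKO replicate 2 Adamts7 had more reads. Adamts9 had 15 and 10 reads in WT and 25 and 16 in CbfbKO, a log2 fold change of 0.56 (95% interval -0.17 to 1.29). The versican gene Vcan itself had 4 to 7 reads per library, and the other 5 ADAMTS substrate genes on the list, Acan among them, had none.

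Adamts7, which cuts cartilage oligomeric matrix protein, had 27 and 28 reads in WT and 41 and 47 in CbfbKO. Its log2 fold change of 0.57 (95% interval 0.03 to 1.12) did not pass the adjusted threshold (limma adjusted p = 0.305). Adamts14, which removes the amino-terminal propeptide of procollagen, had 17 and 30 reads in WT and 15 and 11 in CbfbKO. Its groups did not overlap and its log2 fold change was -0.79 (95% interval -1.52 to -0.06, limma adjusted p = 0.280). Adamts10, Adamts5 and Adamts12 had 0 to 8 reads per library. The ADAMTS family summed to 35.3 and 46.8 CPM in WT and 49.1 and 46.7 CPM in CbfbKO, with overlapping groups.

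**Figure D4:**
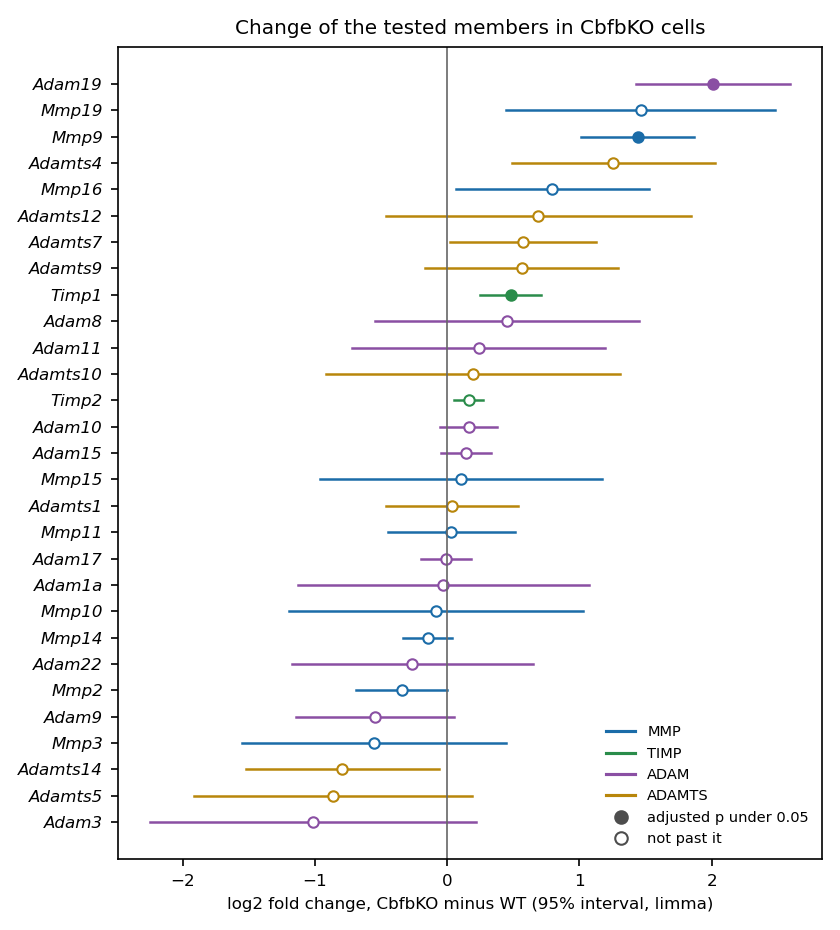
Log2 fold change (CbfbKO minus WT, horizontal axis) of the 29 tested members with its 95% interval from limma, coloured by family. Filled points passed an adjusted p of 0.05. The intervals of the deeply read genes Timp2, Adam17 and Mmp14 are narrow and those of members with few reads are wide.

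How well a difference could be seen depended on depth. The 6 members with at least 100 reads in every library had standard errors of 0.053 to 0.11 on the log2 scale, and the 11 members with under 10 reads in every library had standard errors of 0.46 to 0.60.

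Because core-binding factor acts at promoters, the 250 bases before the start site of the called members were read from the RefSeq promoter table (GRCm38.p6). The table held 20 promoters of 18 of the 29 tested members, Adam19 and Timp1 among the called ones. RUNX motifs (TGTGGT or TGCGGT on either strand) were present in 6 of these 20 promoters (30%) and in 18.6% of all 32851 promoters. For Adam15, Mmp15 and Mmp14 the start site behind the motif was 32, 28 and 14 bases from the annotated gene start. For Mmp11, Adam1a and Adam19 it was 3994, 23787 and 71912 bases away. These shares were not tested against each other. The AP-1 motif TGAGTCA (either strand) was present in 3 of 20 (15%) and in 4.46% of all promoters. A motif match is a description of these letters only, and no binding was measured. The 2 promoters are shown for the called members nearest their annotated gene start, both on the plus strand. The Adam19 promoter, chr11:46055734-46055983, has an AP-1 motif 131 bases before the start site, in capitals, and the Timp1 promoter, chrX:20869916-20870165, has neither motif.
Adam19: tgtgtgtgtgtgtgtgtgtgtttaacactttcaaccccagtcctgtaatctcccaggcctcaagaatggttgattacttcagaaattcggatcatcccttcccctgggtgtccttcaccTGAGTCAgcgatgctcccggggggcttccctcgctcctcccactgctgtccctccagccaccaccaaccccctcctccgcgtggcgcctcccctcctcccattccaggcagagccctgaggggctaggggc
Timp1: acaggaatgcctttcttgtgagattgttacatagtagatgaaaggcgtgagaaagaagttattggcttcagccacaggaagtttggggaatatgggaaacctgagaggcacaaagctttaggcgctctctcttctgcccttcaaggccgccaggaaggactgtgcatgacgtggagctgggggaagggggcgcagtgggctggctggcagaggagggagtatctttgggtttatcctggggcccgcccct

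A further pair of RefSeq start sites of Adam19 were listed, of which the most downstream, at 46127904, had a RUNX motif (TGTGGT) 231 bases before it and the most upstream, at 46054502, had neither motif. The AP-1 motif was also present before Mmp3 and Mmp10, 46 and 63 bases from their start sites. The RUNX motif was present before Mmp14 (ACCACA) and Adam15 (TGTGGT), whose intervals of change included 0.

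Genes that act on these enzymes changed in both directions. Of 26 regulators, 19 were tested. Serpine2, an inhibitor of serine proteases, had 31 and 31 reads in WT and 68 and 57 in CbfbKO and rose (log2 fold change 0.90, limma adjusted p = 0.0310). Over the alternatives the adjusted p of Serpine2 ranged from 0.00923 to 0.252, and its call was lost without either CbfbKO library. Tspan5, a tetraspanin that escorts Adam10 to the cell surface, had 215 and 236 reads in WT and 170 and 133 in CbfbKO and fell by 0.64 on the log2 scale (limma adjusted p = 0.00161), a call lost under quantile normalization (adjusted p = 0.0605).

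Of 28 substrate genes, 18 were tested, 1 rose and 3 fell. Jag1, a Notch ligand shed by ADAMs, had 77 and 73 reads in WT and 183 and 155 in CbfbKO, a log2 fold change of 1.08 ± 0.15 (SE). Areg, the precursor of amphiregulin and a classical Adam17 substrate, had 88 and 76 reads in WT and 40 and 36 in CbfbKO (log2 fold change -1.13, limma adjusted p = 0.00154), a call lost under quantile normalization (adjusted p = 0.0563). Ereg, the precursor of epiregulin, had 106 and 88 reads in WT and 68 and 54 in CbfbKO (log2 fold change -0.72, limma adjusted p = 0.0242). Sdc4, a cell-surface proteoglycan, had 267 and 256 reads in WT and 213 and 177 in CbfbKO (log2 fold change -0.49, limma adjusted p = 0.0078). The calls of Ereg and Sdc4 were lost without either CbfbKO library, and that of Ereg also without WT replicate 1. Their adjusted p over the alternatives reached 0.214 and 0.266.

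Of 14 related genes outside the symbol rule, 4 were tested and 1 fell. Adamtsl4, an ADAMTS-like matrix protein without a protease domain, had 54 and 51 reads in WT and 28 and 27 in CbfbKO (log2 fold change -0.95, limma adjusted p = 0.0350). Its call was lost when any of the 4 libraries was left out (adjusted p up to 0.276 over the alternatives). Among the core-binding factor genes themselves, Runx1 had 249 and 252 reads in WT and 455 and 378 in CbfbKO (log2 fold change 0.65). Runx2 had 55 and 52 reads in WT and 108 and 90 in CbfbKO (log2 fold change 0.79, limma adjusted p = 0.0123), a call lost without either CbfbKO library. The calls of Serpine2, Ereg, Sdc4, Adamtsl4 and Runx2 were also lost under quantile normalization, and those of Serpine2 and Adamtsl4 without a filter on low values (limma adjusted p = 0.0646 and 0.0753). Runx3 had 0 reads.

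The differences of the members were then set beside each other under every alternative. Adam19 and Mmp9 stayed past the threshold in 12 of 13 alternatives, including each one that left out a library, with log2 fold changes of 1.81 to 2.13 and 1.29 to 1.58. Timp1 stayed past it in 8 of 13, with log2 fold changes of 0.32 to 0.64. The exception common to all was a fit without a mean-variance trend, in which no gene at all passed.

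**Figure D5:**
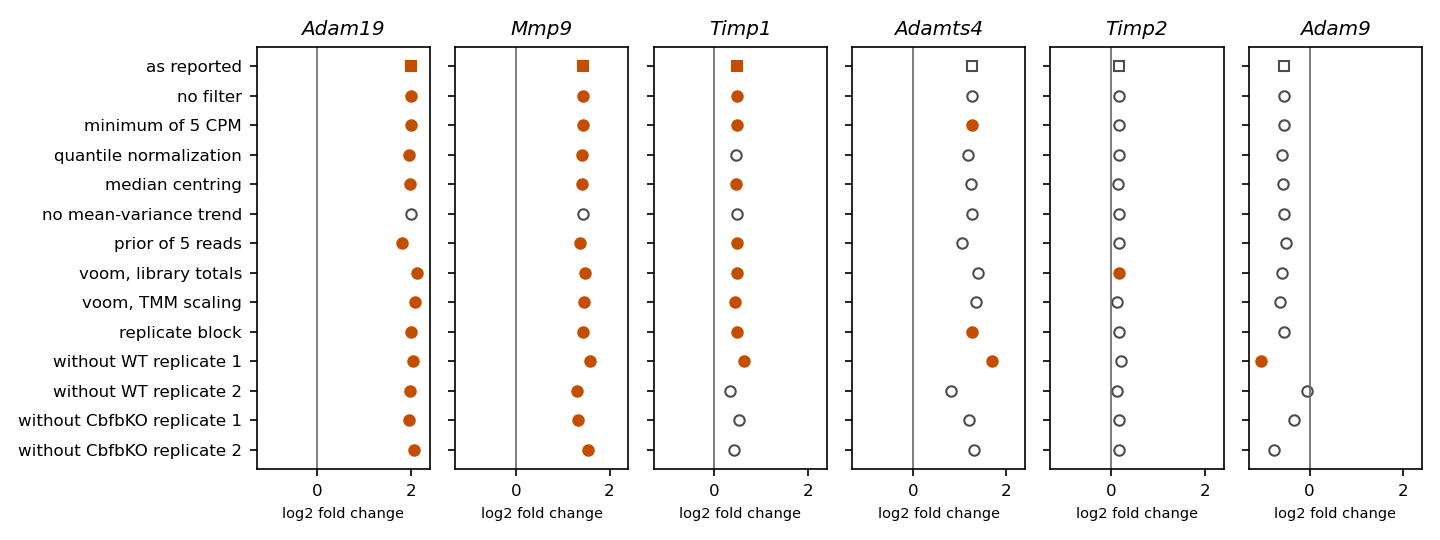
Log2 fold change (horizontal axis) of 6 members as reported (squares) and under 13 alternatives (circles), 1 alternative per line. Orange filled marks passed an adjusted p of 0.05. Adam19 and Mmp9 keep their place and their call except without the mean-variance trend, while Timp1, Adamts4 and Adam9 keep their direction and gain or lose the call with the library left out.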

How the data were processed

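The authors deposited log2 CPM values per gene, with a prior count of 2 reads scaled to library size. Per the submitters' processing notes and the study's methods, reads were trimmed with cutadapt 1.9, aligned with HISAT2 2.1.0 to the mouse genome (mm10) and counted with featureCounts, of which the notes name version 2.0.1 and the methods another version. Whole reads were recovered to within 0.1 read for at least 99.99% of values per library. The 12207 genes reaching a log2 CPM of 0 in 2 or more libraries entered the test, made with limma 3.58.1 (R 4.3.3, mean-variance trend, all 4 libraries, two-sided, Benjamini-Hochberg over all genes). Tested on simulated data, the procedure found 139 of 200 genes changed by 1 on the log2 scale (69.5% of them, among 12224 genes) with 3 false calls. Members and lists were chosen with earlier results of these data known. Genes named were all called members, all TIMPs, the 5 highest tested members per family, members with non-overlapping groups and unadjusted p under 0.05, and called genes of the other lists. Others are named for detection or as substrates and markers, chosen after their values were seen. Alternatives were another filter, scaling, prior, variance model, voom, a replicate block and leaving out each library. Some genes of the lists and overlaps are not reported here.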

Additional observations from a re-analysis of the deposited data

How the results depend on the processing

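With 3189035 to 3907936 reads per library, members under 10 reads could show only large differences. Of all genes, 192 were higher and 153 lower as reported. Higher genes numbered 300 with a minimum of 5 CPM, 40 under quantile normalization, 0 without the mean-variance trend and 320 with a replicate block, and 61 to 234 when a library was left out. Lower genes numbered 48 under quantile normalization, 0 without the trend, 240 in voom with TMM scaling, and 86 to 161 when a library was left out. Without the trend 0 members were called by limma (7 at an unadjusted p under 0.05, and 1461 of all genes), and Cbfb had a log2 fold change of -1.27 with an adjusted p of 0.115. Leaving out a library gave 2 to 4 members higher and 0 to 1 lower, the 1 being Adam9 without WT replicate 1. The other pathway genes, 5 higher and 6 lower as reported, numbered 3 and 1 under quantile normalization, 0 and 0 without the trend, and 3 to 6 and 3 to 5 when a library was left out. The sign turned for Mmp11 under quantile normalization (-0.0091), and with a library left out for Mmp11 (-0.19 to 0.25), Adam17 (-0.10 to 0.084) and Adamts1 (-0.30 to 0.37), none of them called. The replicate block called 535 genes, all 345 of the reported ones among them, and of the named members it changed the call of Adamts4 only. Deviations of libraries with equal numbers had a correlation of -0.0042 over 12207 genes, so the numbers were not taken as pairs. The causes were not tested.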
